A study of Drosophila melanogaster with 4 samples.

Results

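The Cpr genes of Drosophila melanogaster were examined for accessible chromatin in flight-muscle tissue. Members were the genes whose symbol is Cpr followed by a digit, on the main chromosome arms of the RefSeq annotation of genome Release 6. There were 70 of them among 17684 genes. A gene was called in a library when a peak of that library overlapped its span, extended by 500 bp on each side, by at least 1 bp. Peaks came from ATAC-seq, in which a transposase inserts adapters into open DNA. The tissue was dissected thoracic muscle, enriched for flight muscle, of pharate adults, which had not yet left the pupal case, 96 hours from puparium formation at 25 °C. At least 40 animals were pooled per library. The mutants were w[1118]; Pgk[Delta.E2F], line 12, in which an E2F site upstream of Pgk is mutated, and the controls were w[1118]. Pgk encodes phosphoglycerate kinase, a glycolytic enzyme, and E2F factors are best known for controlling cell-cycle genes. All 4 libraries thus share the w[1118] background, the mutants are 1 line, and each genotype has 2 libraries, called here mutant 1 and 2 and control 1 and 2.

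Cpr genes encode structural proteins of the insect cuticle that carry the Rebers and Riddiford consensus, a chitin-binding domain. They are secreted by epidermal cells, and some by tracheal cells, and are used in waves that follow the ecdysone pulses of each molt. Many lie in tandem clusters that arose by gene duplication. Late pupae complete the adult cuticle, while muscle cells are not known to make cuticle. Muscles attach to it through tendon cells, which are specialised epidermal cells, so a dissected muscle sample can hold some epidermis.

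The main-arm lists held 25528 and 25985 peaks in mutants 1 and 2, against 29341 and 29923 peaks in controls 1 and 2. Depth was compared through the background each list implies, which came to 4.62 and 5.26 fragments in the mutants, against 7.44 and 7.61 in the controls. Mutant 1 thus had the lowest implied background and the shortest list. Read depth itself is unknown, so this is not a measured order of depth. Over all genes, 9872.5 ± 44.5 were called in the mutants and 10736 ± 156 in the controls (SD, n = 2 each), a difference of -863.5 genes (two-sided p = 0.333 by exact permutation, the lowest that 2 against 2 libraries allow). Nothing in the labels shows that libraries of 1 genotype came from separate cultures. The lists hold no counts per gene, so no value below is a level of accessibility, and fewer open cells cannot be told apart from less accessibility per cell.

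Cpr genes were called less often than the average gene in 3 of the 4 libraries. Mutant 1 called 41 of the 70 Cpr genes, with 56% of all genes as background. Mutant 2 called 27, against 55.6% of all genes. Control 1 called 25, against 60.1% of all genes, and control 2 called 34, against 61.3%. As shares these are 58.6% and 38.6% of the Cpr genes in the mutants, against 35.7% and 48.6% in the controls. Other genes with a RefSeq protein were called at 61.7% and 61.0% in the mutants, against 65.9% and 67.2% in the controls. Against those genes the Cpr share was lower in every library, mutant 1 included. Mutant 1, the library with the lowest implied background, had the most Cpr genes, and the 2 genotypes overlapped. The mean was 34 ± 9.90 Cpr genes in the mutants and 29.5 ± 6.36 in the controls (SD, n = 2 each), and the difference of 4.5 genes was smaller than the spread within either genotype. Without mutant 1 the difference was -2.5 genes, and without control 1 it was 0.

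**Figure D1:**
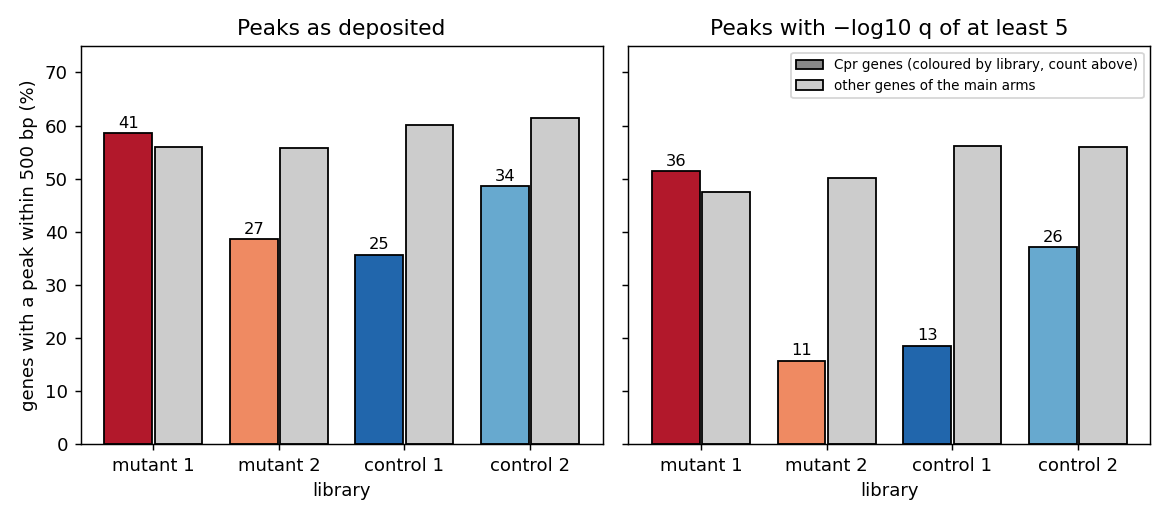
Share of genes with a peak within 500 bp in each library, in percent, for the 70 Cpr genes (coloured bars, number of genes above) and the other genes of the main arms (grey bars), with peaks as deposited (left) and with peaks of −log10 q of at least 5 (right). The coloured bar exceeds the grey one in mutant 1 and in no other library, and at the stricter threshold the Cpr counts are 36 and 11 in the mutants against 13 and 26 in the controls. Grey bars include genes without a RefSeq protein. Among other genes with one, mutant 1 called 61.7%, and 52.0% at the stricter threshold, both above its Cpr share.

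The differences between libraries were wider among stronger peaks. With peaks of −log10 q of at least 5, a value the authors' peak caller gave, mutant 1 kept 36 Cpr genes (51.4%), with 47.5% of all genes as background. Mutant 2 kept 11 (15.7%), against 49.9% of all genes. Control 1 kept 13 (18.6%), against 55.9%, and control 2 kept 26 (37.1%), against 55.8%. Among other genes with a RefSeq protein the shares were 52.0% and 54.7% in the mutants, against 61.4% and 61.2% in the controls. Each is above the Cpr share of that library. Mutant 1 and control 2 stood above mutant 2 and control 1 at both thresholds.

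Only 15 Cpr genes (21.4%) were called in all 4 libraries, against 44.6% of all genes. At least 1 library called 47 of the 70 (67.1%), close to the 71.2% of all genes. Of other genes with a RefSeq protein, 49.2% were called in all 4 libraries and 77.5% in at least 1. The share called in all 4 libraries was thus further below that of all genes than the share called in at least 1. Peaks that overlap across the lists were joined into merged regions, so a region can also hold peaks that do not overlap each other. Of the 94 such regions in the Cpr windows, 16 (17.0%) were common to the 4 lists and 45 (47.9%) came from 1 list. Over the whole table of 44429 merged regions these shares were 30.3% and 37.0%.

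Cpr genes are short, with a median span of 1093.5 bp against 1712.5 bp for the other genes, and a short window holds fewer peaks. Under 1 kb, 1 of 33 Cpr genes (3.03%) was called in all 4 libraries, against 24.0% of other genes of that length. Between 1 and 2 kb, 7 of 20 were called in all 4, against 33.5%. From 2 to 5 kb it was 3 of 10 against 52.8%, and from 5 kb upwards 4 of 7 against 80.5%. With the other genes weighted to the lengths of the Cpr genes, their share was 36.5%, against 21.4% of the Cpr genes. Called in at least 1 library were 67.1% of the Cpr genes, against a weighted 63.5% of the other genes. By library, the Cpr shares of 58.6% and 38.6% in the mutants stood against weighted shares of 47.5% and 47.7% of other genes. In the controls 35.7% and 48.6% of the Cpr genes stood against 52.2% and 53.0%. Weighting for length thus set mutant 1 further above the other genes and brought control 2 closer to them.

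**Figure D2:**
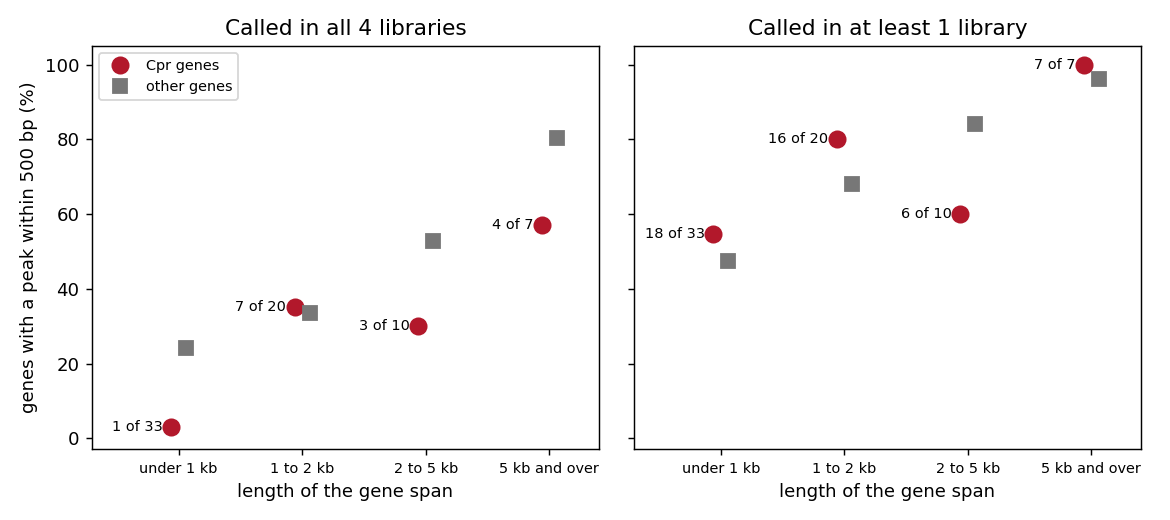
Percent of genes called in all 4 libraries (left) and in at least 1 library (right), by length of the gene span, for Cpr genes (circles, with the number called of the number in the class) and other genes (squares). The circle lies below the square in 3 of the 4 classes on the left and in 1 class on the right.

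The Cpr peaks were mostly weak ones within their own lists. Ranked by the authors' −log10 p, with the strongest peak at the top, the median Cpr peak stood at the top 59.95% and 80.8% of the lists of mutants 1 and 2, and at the top 78.7% and 67.8% of those of controls 1 and 2. Peaks near other genes had medians of the top 51.6% and 49.1% in the mutants, against 47.4% and 49.5% in the controls. Distinct Cpr peaks numbered 63 and 35 for the mutants, against 40 and 56 for the controls. The upper 50% of the list held 22 and 7 of them for the mutants, against 7 and 10 for the controls. The median Cpr peak had a recovered summit pileup of 21 and 20 fragments in the mutants, against 26 and 28 in the controls, where peaks near other genes had 24 and 33, and 44 and 37.

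**Figure D3:**
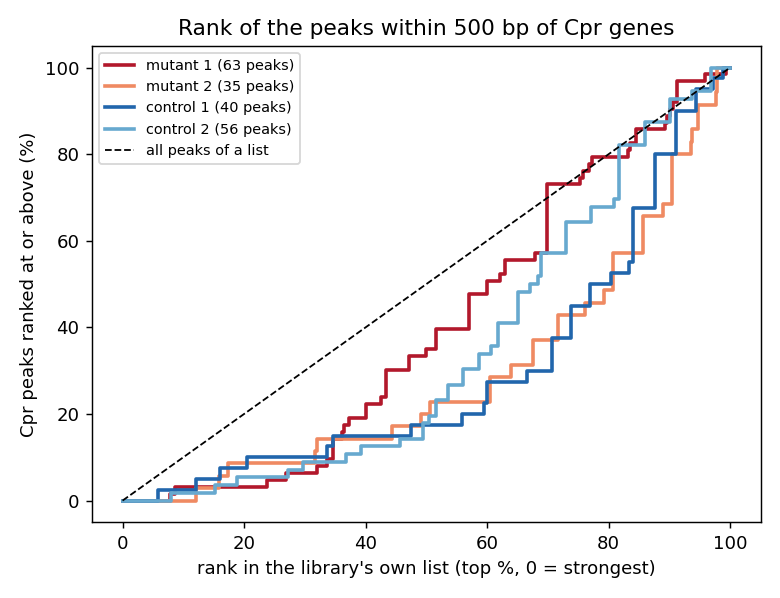
Cumulative percent of Cpr peaks (vertical) at or above a given rank in the library's own peak list (horizontal, top percent, 0 being the strongest peak), 1 line per library; the dashed line is what a list as a whole gives. Between the top 20% and the top 60% all 4 lines run below the dashed line, and at the top 50% the line of mutant 1 is closest to it.

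By mean rank over the 4 lists, 3 genes led those called in all 4 libraries, with means of the top 8.45% for Cpr73D, 16.7% for Cpr47Ea and 23.9% for Cpr66D. Cpr73D (Dmel_CG9665, 3L:16939100-16957689) had 8 and 5 peaks in the mutants, against 9 and 8 in the controls. Its strongest peak ranked in the top 7.83% and 12.1% of the mutant lists and the top 5.90% and 8.0% of the control lists. The authors' fold enrichments of that peak were 9.07 and 9.21 in the mutants, against 11.9 and 10.3 in the controls. Such folds are relative to each library's own background, so here and below they describe a peak within its list and measure no change between genotypes. The strongest peak lies in the region 3L:16957017-16957761, which also overlaps Ogdh, a gene of the TCA cycle enzyme 2-oxoglutarate dehydrogenase, and the lists do not assign it to either gene. Cpr73D has the longest span of the family, at 18590 bp, and several of its weaker peaks overlap Obp73a, an odorant-binding protein gene.

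Cpr47Ea (Dmel_CG9079) had 1 region common to the 4 libraries, 2R:11252145-11252416, inside its span and over no other gene. Its strongest peak had a fold enrichment of 6.05 and 9.42 in the mutants, against 12.6 and 9.41 in the controls. It ranked in the top 23.8% and 15.9% of the mutant lists and the top 12.1% and 15.3% of the control lists. In its own list the peak of mutant 1 was the lowest-ranked of the 4.

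Cpr66D (Dmel_CG32029) had a region common to the 4 libraries at 3L:8640242-8640768, across 1 end of the gene and over no other gene. The span of Zasp66 (3L:8624371-8638813), a flight muscle marker called in all 4 libraries, ends near this region. The lists do not assign the region to a gene. Fold enrichments of the strongest Cpr66D peak were 4.45 and 8.94 in the mutants, against 10.7 and 8.25 in the controls. The ranks were the top 43.3% and 17.4% in the mutants and the top 16.0% and 18.8% in the controls. Mutant 1 again had the lowest-ranked peak within its list, where Cpr100A, Cpr92F, Cpr62Bc and others ranked above Cpr66D, while mutant 2 and both controls were close to each other. These 3 genes were also the only Cpr genes called in all 4 libraries with −log10 q of at least 5.

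The other 12 genes called in all 4 libraries had weaker peaks, with mean ranks from the top 55.5% for Cpr92F to the top 83.0% for Cpr64Ad. Cpr92F (3R:20669571-20672821) had fold enrichments of 4.98 and 3.19 in the mutants, against 4.15 and 4.30 in the controls, with 1 common region of 992 bp inside the gene. Cpr100A (3R:30867521-30869184) had 5.69 and 3.35 in the mutants, against 3.91 and 3.48 in the controls, and ranked in the top 26.9% and 80.8% of the mutant lists and the top 60.1% and 61.8% of the control lists. Here mutant 1 had the highest-ranked peak and mutant 2 the lowest.

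Cpr62Bc (3L:1840281-1842084) had fold enrichments of 4.98 and 4.79 in the mutants, against 2.61 and 3.72 in the controls. Its ranks were the top 34.6% and 49.1% in the mutants and the top 94.4% and 56.0% in the controls. Cpr97Eb had 4.80 and 3.03 in the mutants, against 3.91 and 3.95 in the controls, and its neighbour Cpr97Ea 3.89 and 3.03 in the mutants, against 3.32 and 3.60 in the controls. In both of these genes mutant 2 had the lowest-ranked peak within its list. Cpr50Cb had 4.62 and 3.19 in the mutants, against 3.20 and 3.72 in the controls.

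Cpr64Aa had fold enrichments of 4.70 and 3.67 in the mutants, against 2.72 and 3.95 in the controls, and Cpr64Ad 2.92 and 3.13 in the mutants, against 2.96 and 3.23 in the controls. The regions of both overlap CG43367. Cpr57A, with 4.09 and 4.15 in the mutants, against 2.84 and 2.90 in the controls, was called from a region shared with Obp57d, another odorant-binding protein gene. The ranks were the top 51.6% and 60.4% in the mutants and the top 87.6% and 81.6% in the controls. The region of Cpr65Ax2 lies over Lcp65Ab1, a larval cuticle protein gene, and ranked in the top 69.8% and 67.5% of the mutant lists and the top 84.0% and 49.5% of the control lists.

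Cpr50Ca and Cpr47Ef were called in all 4 libraries without a region that all 4 shared. Cpr50Ca had 5 peaks in mutant 1, 1 in mutant 2, 2 in control 1 and 4 in control 2. They fell into 8 merged regions, of which none had a peak in over 2 libraries. The other 13 genes had at least 1 merged region common to the 4 libraries. In Cpr97Ea and Cpr64Ad the peaks of the mutants in that region did not overlap each other. A wider peak of control 2 joined them. Peaks over the span of a gene outside the family made up 14 and 14 of the Cpr peaks in the mutants, against 15 and 17 in the controls. With such peaks left out, 9 Cpr genes were called in all 4 libraries.

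Within those 15 genes the best rank of the 4 lists was held by mutant 1 in 9, by mutant 2 in 0, by control 1 in 3 and by control 2 in 3. Among other genes called in all 4 libraries, mutant 1 held the best rank in 16.9%, mutant 2 in 13.7%, control 1 in 37.4% and control 2 in 32.1%. The lowest rank was held by mutant 1 in 3 of the 15, by mutant 2 in 8, by control 1 in 4 and by control 2 in 0. Among the other genes called in all 4 libraries, mutant 1 held it in 49.6%, mutant 2 in 32.2%, control 1 in 11.2% and control 2 in 6.98%. These ranks are places within lists of unequal length and implied background, and do not measure a change.

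**Figure D4:**
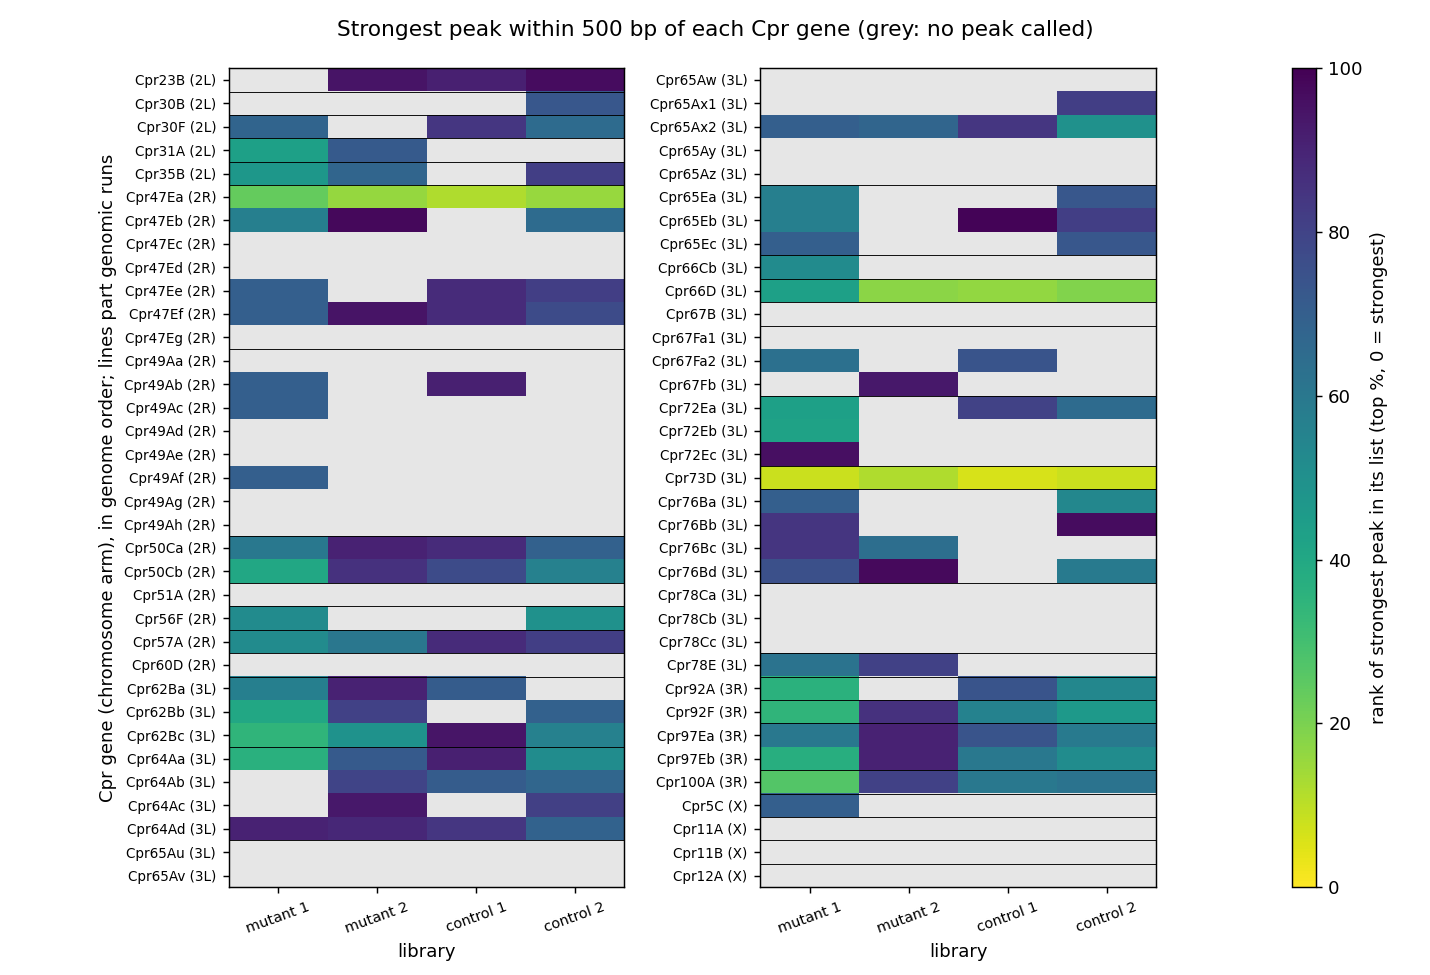
The rank of the strongest peak within 500 bp of each of the 70 Cpr genes (rows, in genome order, with the chromosome arm) in each library (columns), as the top percent of the library's own list; yellow is strong, dark is weak and grey means no peak. Cpr73D and Cpr47Ea are within the top 23.8% in every column, Cpr66D is at the top 43.3% in mutant 1 and within the top 18.8% in the other columns, and mutant 1 is the column with the fewest grey cells, with 41 genes called.

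Neighbouring Cpr genes were grouped into runs with at most 20 kb between spans. There were 33 runs, 10 of them clusters of at least 3 genes that together hold 45 members. Of these 45, 28 were called in at least 1 library and 6 in all 4. Of the 25 members outside clusters, 19 were called in at least 1 library and 9 in all 4. Over all genes the shares were 71.2% and 44.6%. Length was not matched between these groups, and 1 of 33 Cpr genes under 1 kb was called in all 4. The longest members, Cpr73D (18590 bp), Cpr50Ca (17888 bp) and Cpr50Cb (10455 bp), lie outside clusters and were called in all 4.

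The Cpr49A and Cpr65A clusters had few calls. The Cpr49A cluster (2R:12376626-12415170) has 8 genes, of which 3 and 0 were called in the mutants, against 1 and 0 in the controls. The calls were Cpr49Ab, Cpr49Ac and Cpr49Af in mutant 1 and Cpr49Ab in control 1, each from 1 peak. Cpr49Aa, Cpr49Ad and Cpr49Ae are among the 5 of its genes with no peak in any list. The Cpr65A cluster (3L:6131242-6161589) has 7 Cpr genes interleaved with 14 other genes, including larval cuticle genes of the Lcp65A series. In it 1 gene was called in each mutant, and 1 and 2 in the controls, and Cpr65Au, Cpr65Av and Cpr65Aw had no peak in any list.

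The Cpr47E cluster (2R:11251751-11278445) was called in part. Mutants 1 and 2 called 4 and 3 of its 7 genes, and controls 1 and 2 called 3 and 4. Cpr47Ec, Cpr47Ed and Cpr47Eg were called nowhere, and Cpr47Ea, described above, had the best mean rank of the cluster. The 3 genes of the Cpr78C cluster, Cpr78Ca, Cpr78Cb and Cpr78Cc, had no peak in their windows in any library. With windows extended by 1000 bp instead, Cpr78Cb was called in all 4. Each library had 1 peak in the extent of this cluster, and it is the peak called at the neighbouring cuticle gene Edg78E.

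The next 4 clusters differed between libraries of 1 genotype more than between the genotypes. In the Cpr65E cluster (3L:7086003-7093841) 3 and 0 of 3 genes were called in the mutants, against 1 and 3 in the controls. In the Cpr76B cluster (3L:19517552-19538289) it was 4 and 2 of 4 in the mutants, against 0 and 3 in the controls. In the Cpr72E cluster (3L:16362603-16367340) it was 3 and 0 of 3 in the mutants, against 1 and 1 in the controls. In these 3 clusters mutant 1 had every gene. The Cpr64A cluster (3L:4207838-4216414) ran the other way, with 2 and 4 of 4 genes in the mutants, against 3 and 4 in the controls.

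In the Cpr62B cluster (3L:1824129-1842084) all 3 genes were called in both mutants, and 2 in each control. The missing genes were different ones, Cpr62Bb in control 1 and Cpr62Ba in control 2. In the Cpr67F cluster 1 of 3 genes was called in each mutant, and 1 and 0 in the controls. The gene of that cluster was Cpr67Fa2 in mutant 1 and control 1 and Cpr67Fb in mutant 2. Cpr67Fa1 and Cpr67Fa2, like Cpr65Ax1 and Cpr65Ax2, are named as duplicates of each other. Whether the authors kept reads that align to both copies is not given in the sources used here, so calls at such genes are uncertain.

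**Figure D5:**
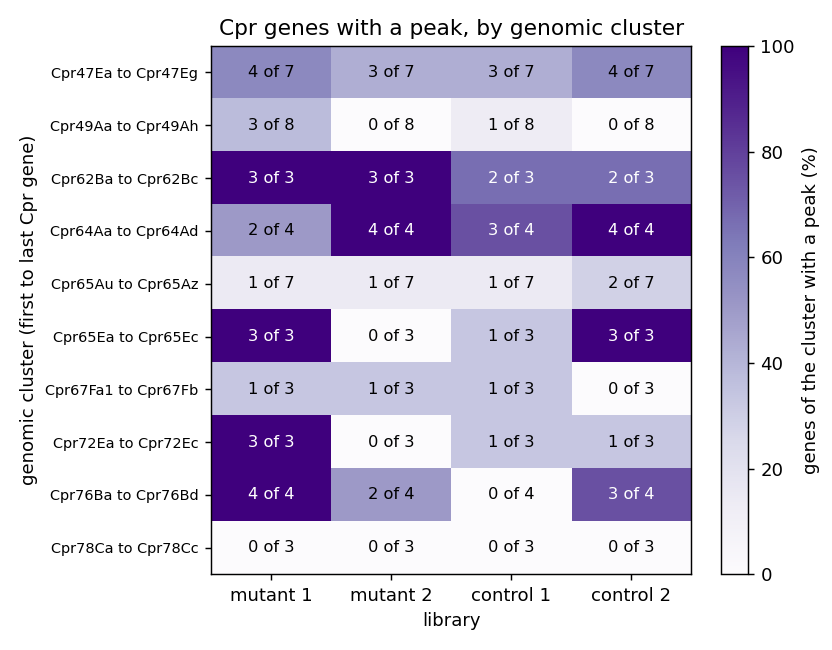
Cpr genes with a peak in each of the 10 clusters of at least 3 genes (rows, named by first and last Cpr gene) and each library (columns); the shade is the percent of the cluster's genes and the text their number. The Cpr65E, Cpr72E and Cpr76B rows are complete in mutant 1 and hold 0, 0 and 2 genes in mutant 2.

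Between the genotypes, 3 Cpr genes (4.29%) were called in both mutants and neither control, against 0.707% of all genes. In the reverse direction, called in both controls and neither mutant, there were 0 Cpr genes, against 2.31% of all genes. No test was made of these counts over chosen genes, and with 2 libraries each no single gene can be shown to differ by genotype.

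Cpr31A (2L) had 2 peaks in mutant 1 and 1 in mutant 2 and none in the controls, with strongest fold enrichments of 4.45 and 3.67 and ranks of the top 43.3% and 71.6%. The peaks of both mutants overlapped, at 2L:10054972-10055160 in mutant 1 and 2L:10054993-10055124 in mutant 2. Cpr78E (3L) had overlapping peaks with fold enrichments of 3.70 and 3.35 in the mutants, at the top 62.0% and 80.8% of their lists, and none in the controls. Cpr76Bc also had 1 peak in each mutant and none in the controls, but the 2 peaks lay apart, at 3L:19526342-19526447 in mutant 1 and 3L:19527038-19527129 in mutant 2. The 3 genes kept this pattern with every list cut to the length of the shortest, where it was shown by 1.26% of all genes. With −log10 q of at least 5 it was shown by Cpr31A, Cpr35B and Cpr57A, against 0.464% of all genes. With windows extended by 1000 bp, Cpr31A was called in all 4 libraries, so its call as mutant alone depends on the window.

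Several Cpr genes were called in mutant 1 with or without control 2. Mutant 1 alone called 6, namely Cpr49Ac, Cpr49Af, Cpr66Cb, Cpr72Eb, Cpr72Ec and Cpr5C, which is 8.57% of the family against 3.24% of the other genes. Mutant 1 and control 2 alone shared 5, namely Cpr56F, Cpr65Ea, Cpr65Ec, Cpr76Ba and Cpr76Bb, which is 7.14% against 2.07%. Mutant 2, control 1 and control 2 without mutant 1 shared 2, Cpr23B and Cpr64Ab (2.86% against 5.61%). Mutant 1 was the only library for 23 of its 60 merged regions in Cpr windows (38.3%), against 20.5% of its regions on all main arms. For mutant 2 it was 4 of 35 (11.4%), close to its share on all main arms.

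Of the 70 genes, 23 (32.9%) had no peak in any library, against 28.8% of the other genes. They include 3 of the 4 X-linked members, Cpr11A, Cpr11B and Cpr12A. All 5 members on 2L and all 5 on 3R were called in at least 1 library, but on 3R 4 were called in all 4 libraries and on 2L 0 were. On 2R 11 of 21 and on 3L 25 of 35 were called in at least 1 library. Over all genes 71.2% were called in at least 1 library and 44.6% in all 4. Shares of all genes by arm were not computed and span was not matched, so these counts show no effect of the arm.

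The place of Cpr peaks was read from their summits. The summit fell inside the span for 59 of 65 and 30 of 35 pairs of a gene and a peak in the mutants, and for 34 of 41 and 49 of 56 in the controls. It lay within 500 bp of an end of the gene for 36 and 19 of these pairs in the mutants, against 18 and 29 in the controls. The gene table gives no strand, so starts and ends of transcription are not separated. The same shares were not computed for the peaks of other genes, so these counts show nothing particular to the family.

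Other cuticle genes, several groups of which carry the same domain, were counted beside the Cpr genes. There were 56 genes of the Lcp, Ccp84A, Acp, Edg, Pcp, resilin and Twdl groups. Of these, 27 and 22 were called in the mutants, against 23 and 29 in the controls, and 14 in all 4 libraries. As shares these are 48.2% and 39.3% in the mutants, against 41.1% and 51.8% in the controls. The background was 55.6% to 61.3% of all genes by library and 44.6% in all 4. The median span of this list is 890 bp, and 24.0% of the other genes under 1 kb were called in all 4. With −log10 q of at least 5, 20 and 16 of the 56 genes were called in the mutants, against 16 and 28 in the controls. Control 2, not mutant 1, thus had the most. At that threshold 47.5% and 49.9% of all genes were called in the mutants, against 55.9% and 55.8% in the controls. The strongest were resilin, which encodes the rubber-like protein of elastic cuticle, with fold enrichments of 6.98 and 13.2 in the mutants, against 15.1 and 14.96 in the controls, and Lcp9, with 5.39 and 9.08 in the mutants, against 10.7 and 9.66 in the controls. As with Cpr47Ea and Cpr66D, the peak of mutant 1 had the lowest rank of the 4 within its own list. The same held for 49.6% of the genes outside the Cpr family called in all 4 libraries. Of the 56 genes, 20 had no peak in any library, as for 28.8% of the genes outside the Cpr family. Lcp3, Lcp4 and Acp65Aa were among the 20, but Lcp9 and Lcp65Ab1 were called in all 4 libraries and Acp1 in mutant 1.

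Epidermal genes were partly called. Of 18 genes that mark the epidermis or act in cuticle formation, 14 and 12 were called in the mutants, against 14 and 16 in the controls, and 12 in all 4 libraries. The background was 55.6% to 61.3% of all genes by library and 44.6% in all 4. The median span of this list is 12932.5 bp, and 80.5% of the other genes of 5 kb and over were called in all 4. Peaks at the 18 genes numbered 52 and 40 in the mutants, against 57 and 56 in the controls. Among the 12 were kkv, the chitin synthase gene, ple, which encodes tyrosine hydroxylase, and grh, which encodes the epidermal transcription factor Grainy head. The strongest peak of kkv had fold enrichments of 3.84 and 3.67 in the mutants, against 3.20 and 4.06 in the controls. That of grh, which has other roles too, had 14.8 and 16.3 in the mutants, against 17.4 and 17.2 in the controls. Ddc, which encodes dopa decarboxylase, was called in mutant 1 and control 2, with fold enrichments of 3.25 and 2.84, and in neither mutant 2 nor control 1. The genes t and m were called in both controls and neither mutant, a pattern shown by 2.31% of all genes. The peak of t ranked in the top 30.7% and 14.2% of the control lists, and that of m in the top 87.6% and 68.9%. No library called knk or the pigmentation gene y, as for 28.8% of the genes outside the Cpr family.

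Flight muscle markers were called throughout, 14 of 14 in each library, with a median best rank of the top 6.98% and 8.84% in the mutants and the top 3.77% and 6.64% in the controls. Their median span is 10204.5 bp, and of other genes of 5 kb and over 89.2% and 87.1% were called in the mutants, against 89.0% and 92.5% in the controls. Mutant 1 had the fewest peaks at these 14 genes: 83 and 95 in the mutants, against 119 and 96 in the controls. All 3 tendon genes, sr, Tsp and slow, were called in all 4 libraries, with 18 and 13 peaks in the mutants, against 17 and 16 in the controls. Their median span is 22296 bp, and 80.5% of the other genes of 5 kb and over were called in all 4. All 16 regulators of the molting cycle, among them EcR, the ecdysone receptor gene, and ftz-f1, a competence factor for later ecdysone responses, were called in all 4 as well. The best peak of ftz-f1 had fold enrichments of 20.3 and 29.2 in the mutants, against 23.4 and 31.2 in the controls. These regulators have a median span of 46196 bp, so their windows are long.

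Among other cell types, the 5 tracheal genes gave 5 and 5 calls in the mutants, against 4 and 5 in the controls, with 16 and 13 peaks in the mutants, against 11 and 19 in the controls. The 5 fat body genes gave 5 and 3 in the mutants, against 3 and 4 in the controls, with 12 and 8 peaks in the mutants, against 8 and 11 in the controls. The 5 neuronal genes gave 5 and 3 calls in the mutants, against 4 and 5 in the controls, with 21 and 13 peaks in the mutants, against 10 and 24 in the controls. The 5 hemocyte genes gave 3 and 3 calls in the mutants, against 3 and 2 in the controls. Their peaks numbered 14 and 18 in the mutants, against 11 and 13 in the controls. Of these genes srp and Pxn were called in all 4 libraries, eater in all but control 2, and Hml and NimC1 in none. The glial gene repo was called in all 4 libraries, with 3 and 1 peaks in the mutants, against 1 and 2 in the controls. The background was 55.6% to 61.3% of all genes by library. Median spans were 7458 bp for trachea, 3465 bp for fat body, 27653 bp for neurons and 13948 bp for hemocytes. Of other genes of 5 kb and over 87.1% to 92.5% were called by library, and of those from 2 to 5 kb 65.6% to 72.8%. Mutant 1 and control 2 thus had more peaks than mutant 2 and control 1 at the tracheal, fat body, neuronal and glial genes, as at the Cpr genes. The other cuticle genes had the same order, with 36 and 26 peaks in the mutants, against 34 and 48 in the controls. The epidermal, tendon, hemocyte and flight muscle genes and the regulators of the molting cycle did not show this order. The part of other cell types in the Cpr calls was not tested.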

How the data were processed

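ATAC-seq peak lists of 4 libraries, 2 mutant and 2 control, were analysed. The submitters' processing notes name cutadapt 2.3, Bowtie2 2.4.1, Picard, MACS2 2.2.7.1 and build BDGP6; settings, the treatment of duplicates and the shift for the transposase cut are not given in the sources used here. The authors deposited 1 list per library, so peaks were called per library. The deposited fold enrichment (a ratio) and −log10 p and −log10 q are each peak's own values against its library's background, used here only within a list. The deposited score column is 10 times −log10 q and was not used. Peaks outside the main chromosome arms were left out.

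Gene spans came from the RefSeq table of Release 6, which is the build of the lists. Peaks sharing at least 1 bp across lists were joined into merged regions. Summit pileups and backgrounds were solved from fold enrichment and −log10 p under a Poisson model for peaks with −log10 p up to 250. Read depth itself is unknown. Overlap and pileup code was tested on simulated data. Python 3.11.15, numpy 2.4.6, pandas 2.3.3 and scipy 1.17.1 were used.

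The genes, lists and rules were chosen with earlier results of these data known. Named genes were those called in all 4 libraries, those called in 1 genotype alone, up to 3 uncalled genes per cluster of 5 or more, and examples of the marker lists called in all 4 or in no library; Ddc, t, m and the single-library calls were named after their values were seen. Replicate numbers were not used to pair the libraries in the main results. Over all genes the deviations of same-numbered libraries from their group means correlated at -0.132. With 2 libraries per genotype this value cannot show whether same-numbered libraries were prepared together, and the labels do not say.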

Additional observations from a re-analysis of the deposited data

How the results depend on the processing

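Alternatives for gene windows, thresholds, list length and depth were tried, and the crossed pairing, the rule on second genes and those for all genes were chosen after seeing the data. The difference of 4.5 Cpr genes was 3 to 10 in the settings that kept all 4 libraries. Leaving out 1 library in turn gave -2.5 to 11.5 genes (-2.5 without mutant 1, 0 without control 1), and the difference in Cpr peaks, 1, ranged from -13 to 15. Genes called in the controls alone ranged from 0 to 5, and in the mutants alone from 4 to 9, since fewer libraries have to share a call. With windows of 1000 bp the difference in peaks was -2; the cause was not tested. With −log10 q of at least 5, 3 genes were called in all 4 libraries, 35.2 percentage points below other genes (-35.2). Without peaks over other gene spans it was 9 genes and 9.99 points above, since this removes the own peaks of the other genes. Leaving out peaks over a second gene for every gene gave -16.4 points. Over all genes the difference was -1272.5 with −log10 q of at least 5 and -264.5 at equal list length. With peaks set to the lowest implied background it was -539. The cause was not tested. With the replicate number as a block (replicate block) the paired differences were 4.5 genes and 1 peak, equal to the unpaired ones by arithmetic, and so were those of the crossed pairing. The lists hold no peak below a −log10 q of 2, so a weak accessible site can be missed, also in the mutants with their lower implied background.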
